A study of Arabidopsis thaliana with 12 samples.

Results

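The interaction of genotype and Zeocin asks whether the telomere protein mutant pot1b answered a DNA-breaking drug differently from wild type. It was measured for each gene as the Zeocin effect in pot1b (Zeocin minus mock) minus the Zeocin effect in WT, on a log2 scale, so that a value above 0 means a more positive Zeocin effect in pot1b and a value below 0 a more negative one. The genes were all 32548 nuclear genes (locus names AT1G to AT5G) of the 34262 features in the count files, chosen by their names and not by any measured value. Of these, 27008 had at least 1 count and 19394 passed the filter on low counts and were tested.

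The 12 RNA-seq libraries came from whole Arabidopsis thaliana seedlings grown on MS medium for 6 days, in 4 groups of 3: pot1b with 20 µM Zeocin for 6 h, pot1b mock, WT (Col-0) with 20 µM Zeocin for 6 h, and WT mock. The labels do not name the pot1b allele or say whether the replicates were separate cultures, so p-values measure the spread between these libraries, which may be technical. The libraries held 9607269 to 24587168 counts, of which 53.01% to 58.45% lay on chloroplast genes. Levels are given as CPM, counts scaled to a common library size with TMM normalisation over all features, where 3 counts, taken as the limit of detection, equal 0.122 to 0.312 CPM. This limit covers counting error only, while the SE and SD given below reflect the spread between libraries.

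POT1 proteins bind the single-stranded DNA at chromosome ends, and the study's title ties Arabidopsis POT1b to the balance of reactive oxygen species. Zeocin is a glycopeptide of the bleomycin family that cuts both DNA strands. In plants such breaks activate the kinase ATM and the transcription factor SOG1, which switches on genes for repair by homologous recombination, for nucleotide supply and for cell-cycle arrest. Salicylate, jasmonate, ethylene and auxin are hormones whose target genes also move under stress in seedlings.

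POT1B (AT5G06310), the mutated gene, had 1.66, 0.70 and 4.2 CPM in the pot1b Zeocin libraries 1 to 3, 1.43, 1.09 and 2.82 CPM in the pot1b mock libraries, 3.21, 3.37 and 5.35 CPM in the WT Zeocin libraries and 3.13, 2.95 and 3.23 CPM in the WT mock libraries. The libraries labelled pot1b 3 thus lay within or just under the WT range, while those labelled pot1b 1 and 2 lay below it. POT1B overlaps its neighbour AT5G06320 in the annotation, and whether reads were assigned by strand is not given in the sources used here, so these counts do not settle the genotype of the libraries labelled pot1b 3. Its interaction was -0.02 with a standard error (SE) of 0.74. WT Zeocin library 1 also stood apart: its counts differed from those of WT Zeocin 2 and 3 by a chi-square of 25.9 and 24.1 per degree of freedom, against 3.51 to 10.4 in the other pairs of replicates, and it had the lowest chloroplast share. Called genes that lost their call without both libraries labelled pot1b 3, or without WT Zeocin 1, are therefore named as such.

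Of the 19394 nuclear genes tested, 144 (0.742%) were called for the interaction by edgeR's quasi-likelihood test at a Benjamini-Hochberg adjusted p under 0.05. The contrast was above 0 in 71 of them (0.366%) and below 0 in 73 (0.376%). At least a 2-fold difference between the Zeocin effects was called in 32 genes (0.165%), 11 above 0 (0.0567%) and 21 below 0 (0.108%). By the same test, Zeocin changed 1304 genes (6.72%) in pot1b and 1167 genes (6.02%) in WT. Without adjustment, 2074 genes (10.7%) had a p under 0.05 for the interaction. DESeq2 called 167 genes and limma-voom 142, and edgeR with no robust prior called 74, all among the 144.

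The median interaction over all nuclear genes tested was 0.00, and the size of the contrast in called genes ranged from 0.42 to 3.33 with a median of 0.71. Precision followed the level of expression. Among genes under 2 CPM the median SE was 0.45 and 4 of 4049 were called, and among those of 2 to 10 CPM the SE was 0.24 and 32 of 7831 were called. From 10 to 50 CPM the median SE was 0.15 and 71 of 6038 were called, and above 50 CPM it was 0.11 and 37 of 1476 were called. The smallest contrast called was 1.57 in the lowest class and 0.42 in the highest, so a modest difference in a weakly expressed gene was not detectable at this depth.

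**Figure D1:**
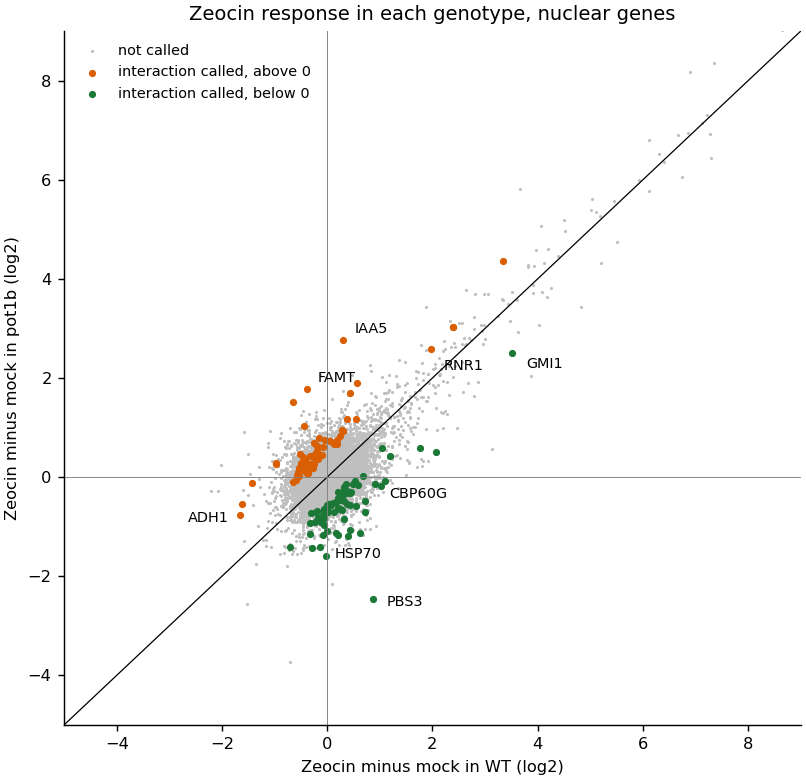
Zeocin effect (log2, Zeocin minus mock) in pot1b on the vertical axis and in WT on the horizontal axis, 1 point per nuclear gene tested, with the line of equal effects. The 71 genes called above 0 are orange and the 73 called below 0 are green, and 3 genes lie outside the plotted range.

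The count of calls depended on single libraries. Without WT Zeocin 1, 416 genes were called, among them 142 of the 144. Without the library labelled pot1b Zeocin 1, 2 or 3 the number called was 55, 65 and 131, and without the one labelled pot1b mock 1, 2 or 3 it was 83, 57 and 71. Leaving out WT Zeocin 2 or 3 gave 114 and 127 calls, and leaving out WT mock 1, 2 or 3 gave 60, 83 and 76. In 44 of the 144 genes the call held in all 12 of these fits. Without both libraries labelled pot1b 3, 64 genes were called, 58 of them among the 144, and the contrasts of the 144 genes changed by a median of 0.04 and at most 0.34. The sign of all 144 contrasts was the same in each of these fits. The genes were chosen by large contrasts in mostly the same libraries, so a change of sign was unlikely and this agreement is no test.

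**Figure D2:**
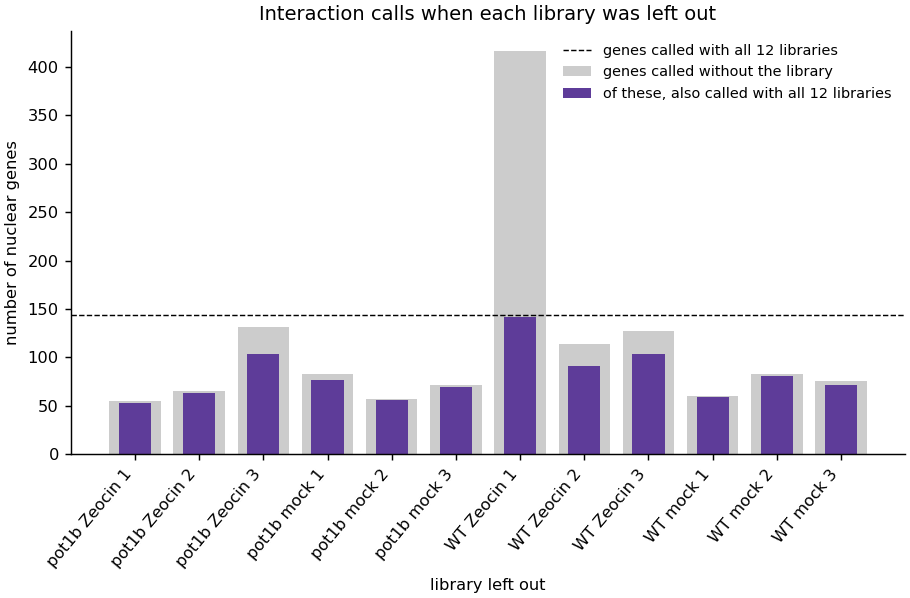
Number of nuclear genes called for the interaction (grey bars) when the library on the horizontal axis was left out, and how many of them were also called with all 12 libraries (purple bars). Leaving out WT Zeocin 1 gave 416 calls, and leaving out any other library gave 55 to 131, under the 144 called with all 12 (dashed line).

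By their Zeocin effects, the called genes fell into a few recurring combinations. Of the 73 genes below 0, 46 were lowered by Zeocin in pot1b and not called in WT, and 14 were raised by Zeocin in WT and not called in pot1b. A further 4 rose in both genotypes, 4 fell in both, 3 fell in pot1b and rose in WT, and 2 were called in neither. Of the 71 genes above 0, 34 were lowered by Zeocin in WT and not called in pot1b, and 24 were raised in pot1b and not called in WT. The rest rose in both genotypes (8 genes), fell in both (2), rose in pot1b and fell in WT (2) or were called in neither (1). The 5 genes with opposite calls were ACS7, AT2G36690 and CRK13, lower in pot1b and higher in WT, and ATAUX2-11 and AT2G22122, higher in pot1b and lower in WT. They are named because they are few, after their values were seen.

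Seen the other way, the genes below 0 were mainly genes already high in untreated pot1b. All 3 pot1b mock libraries lay above all 3 WT mock libraries in 66 of the 73, and below them in none, while under Zeocin pot1b lay above WT in 23 and below it in 21. The median difference between pot1b and WT in these genes was 0.02 under Zeocin and 0.91 under mock (log2). Of the 71 genes above 0, pot1b lay wholly above WT in 48 under Zeocin and in 8 under mock, and wholly below WT in 2 under Zeocin and in 47 under mock. Over all 19394 genes, pot1b lay wholly above WT in 2717 under Zeocin and 3457 under mock, and wholly below in 2343 under Zeocin and 3281 under mock. These counts describe the 144 genes and were not tested, because the choice by the interaction fixes much of the pattern.

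To sort the genes, each was assigned to the group whose mean log2 CPM lay farthest from the mean of the other groups. Below, genes sorted as highest or lowest in a group are those assigned to that group. Genes assigned to other groups can also have their highest or lowest level there. The pot1b mock group stood apart in 54 called genes (37.5%, against 26.6% of all genes tested), above the others in 42 and below them in 12. WT mock stood apart in 34 of the 144 (a share just under the 24.8% of all genes; 18 below, 16 above), pot1b Zeocin in 30 (20.8%, against 24.3%; 21 above, 9 below) and WT Zeocin in 26 (18.1%, against 24.2%; 22 below, 4 above). The call held in every fit without 1 library for 16 of the 42 genes sorted as highest in pot1b mock. It held for 7 of the 18 sorted as lowest in WT mock and 6 of the 21 sorted as highest in pot1b Zeocin. It held for none of the 4 sorted as highest in WT Zeocin.

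**Figure D3:**
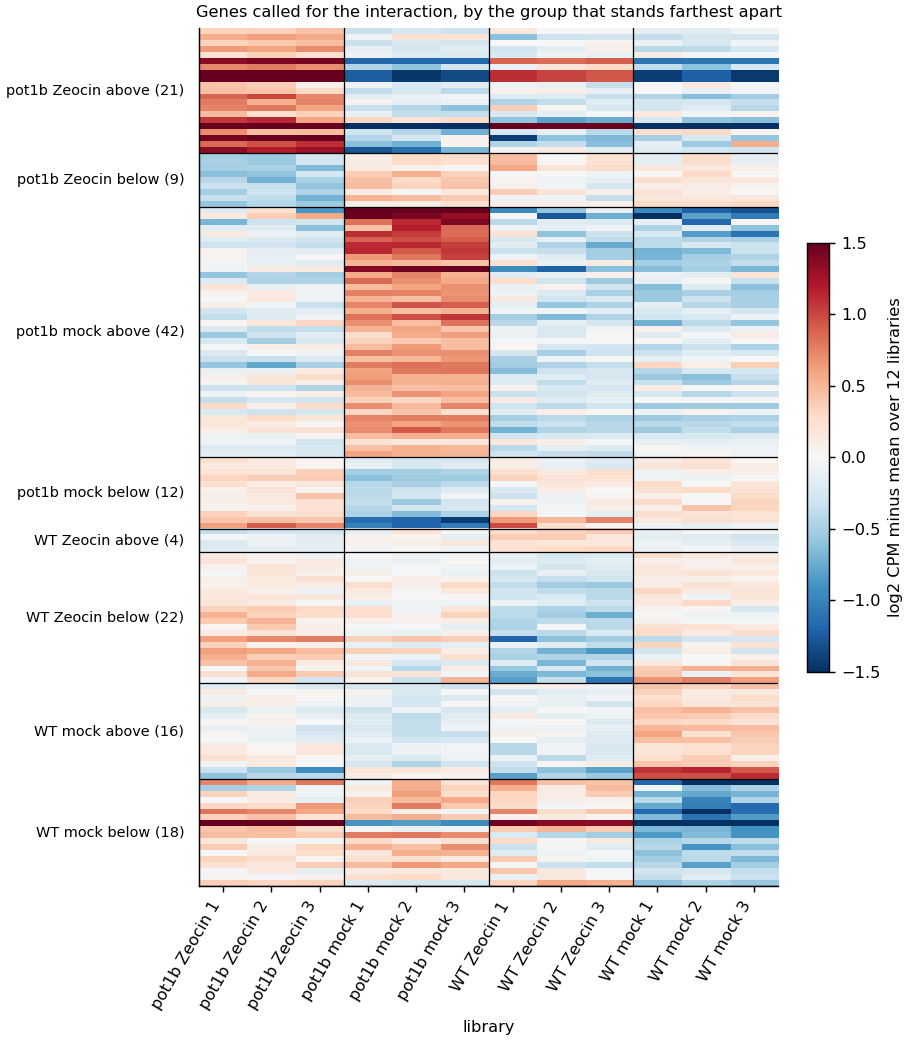
The 144 called genes (rows) in the 12 libraries (columns), coloured by log2 CPM minus the gene's mean over all libraries and ordered by the group that stood farthest apart. The largest block is the 42 genes in which pot1b mock stood farthest apart and above. It is followed by 22 with WT Zeocin farthest apart and below, and 21 with pot1b Zeocin farthest apart and above.

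Most genes of the DNA damage response had a Zeocin effect in both genotypes with no called interaction. Of 39 tested genes of DNA damage response and repair, 23 were raised by Zeocin in pot1b and the same 23 in WT (3.7% and 3.37% of all genes were called higher). For the interaction 1 was called above 0 and 1 below 0 (0.366% and 0.376% of all genes were). The median contrast of the 39 was 0.08, and among the 23 raised genes it ranged from -1.02 to 1.12, with 18 above 0 and a median SE of 0.26.

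RNR1 (AT2G21790), the large subunit of ribonucleotide reductase, which supplies deoxynucleotides for repair, had 65.9, 68.7 and 70.3 CPM in pot1b Zeocin, 11.3, 11.3 and 11.3 CPM in pot1b mock, 47.3, 46.4 and 48.4 CPM in WT Zeocin and 12.1, 12.1 and 12 CPM in WT mock. The Zeocin libraries of pot1b lay above those of WT without overlap, and the mock libraries of pot1b lay just under those of WT. The interaction was 0.62 (SE 0.10, adjusted p = 0.00435). GMI1 (AT5G24280), a gene named for its induction by gamma irradiation and mitomycin C, had 69.6, 72.8 and 71.6 CPM in pot1b Zeocin, 12.6, 13.1 and 12.2 CPM in pot1b mock, 64.3, 60.2 and 60.5 CPM in WT Zeocin and 5.15, 6.00 and 5.27 CPM in WT mock. The groups did not overlap under either treatment. It was higher in pot1b than in WT under mock, by 1.23 on the log2 scale (edgeR adjusted p = 2.83e-09), and its Zeocin effect was 2.5 in pot1b and 3.51 in WT. The interaction was -1.02 (SE 0.11, adjusted p = 8.32e-05). On the linear CPM scale the difference of Zeocin effects was 2.54 CPM, above 0, beside an SD of 2.3 CPM in WT Zeocin alone. This difference was not tested and no error was computed for it. GMI1 was the only called gene whose sign differed between these scales. GMI1 overlaps AT5G03735 in the annotation.

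The other damage genes had contrasts that did not pass. BRCA1 (AT4G21070), a recombination factor and SOG1 target, averaged 98.6 ± 2.98 CPM in pot1b Zeocin, 0.860 ± 0.0776 in pot1b mock, 85.8 ± 4 in WT Zeocin and 1.23 ± 0.129 in WT mock (SD, n = 3 each), an interaction of 0.70 (SE 0.19, edgeR adjusted p = 0.274). XRI1 (AT5G48720), a gene induced by X-rays, had an interaction of 0.58 (SE 0.16, adjusted p = 0.0933). PARP2 (AT4G02390), a break sensor, had 0.07 (SE 0.20), and TSO2 (AT3G27060), the small ribonucleotide reductase subunit, 0.22 (SE 0.14). SMR7 (AT3G27630), an inhibitor of cyclin-dependent kinases, had 0.99 with an SE of 0.79. A miss here does not show that the genotypes responded alike, since mock levels such as those of SMR7, 0.196 ± 0.195 CPM in pot1b mock and 0.245 ± 0.0909 CPM in WT mock (SD, n = 3 each), lay near the limit of detection.

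Lists for the machinery that acts on telomeres and the cell cycle held no called gene. Of 16 tested telomere genes the lowest p was that of STN1 (AT1G07130), which binds single-stranded telomeric DNA, with -0.58 (SE 0.24, adjusted p = 0.361). Among 25 G2/M genes it was CYCB2;2 (AT4G35620), a mitotic cyclin, with 1.33 (SE 0.39, adjusted p = 0.141), and among 22 S phase genes MCM4 (AT2G16440), a replicative helicase subunit, with -0.42 (SE 0.23, adjusted p = 0.556). Unadjusted p-values under 0.05 numbered 1 among telomere genes, 1 among G2/M genes and 0 among S phase genes. DESeq2 and limma-voom also called none in these 3 lists. In an alternative edgeR fit with the replicate number as a block, CYCB2;2 was called (adjusted p = 0.0428). The median contrast of the telomere list was -0.16.

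Salicylate and immunity genes were mostly below 0. Of 24 tested, 3 were called below 0 (0.376% of all genes tested were) and none above. Of the 24, 21 lay below 0 and the median was -0.28, against 0.00 over all genes. CBP60G (AT5G26920), a transcription factor that activates salicylate synthesis, had 24.7, 26.4 and 22.5 CPM in pot1b Zeocin, 27.1, 28.2 and 25.6 CPM in pot1b mock, 20.3, 21.3 and 19.9 CPM in WT Zeocin and 12.3, 8.94 and 10.9 CPM in WT mock. WT mock was the low group, and the libraries of pot1b were high with or without Zeocin. Zeocin raised it by 0.91 on the log2 scale in WT, against -0.14 in pot1b, an interaction of -1.05 (SE 0.14, adjusted p = 0.000356).

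PBS3 (AT5G13320), the enzyme that joins glutamate to isochorismate on the way to salicylate, was scarce outside untreated pot1b. It had 0.554, 0.787 and 0.300 CPM in pot1b Zeocin, 3.35, 2.81 and 2.74 CPM in pot1b mock, 0.274, 0.393 and 0.588 CPM in WT Zeocin and 0.277, 0.210 and 0.190 CPM in WT mock, from 21, 142, 22 and 13 reads summed over the libraries of those groups in turn. The pot1b mock libraries did not overlap any other group, and the interaction was -3.33 (SE 0.57, adjusted p = 0.00457), on few reads outside that group. FRK1 (AT2G19190), a receptor-like kinase induced by the flagellin peptide flg22, had 13.3, 14.4 and 14.7 CPM in pot1b Zeocin, 18.7, 21.2 and 18.7 CPM in pot1b mock, 13.8, 11.5 and 11.1 CPM in WT Zeocin and 9.94, 10.8 and 9.73 CPM in WT mock. Untreated pot1b was high and untreated WT low. Its interaction was -0.73 (SE 0.15, adjusted p = 0.0204), and its call was lost in 4 of the 12 fits without 1 library (the library labelled pot1b Zeocin 1 or pot1b mock 2, WT mock 1 or 3), where the adjusted p reached 0.0832. ICS1 (AT1G74710), isochorismate synthase, missed the threshold with -0.89 (SE 0.22, adjusted p = 0.0684). AIG1 (AT1G33960), a gene induced by a bacterial effector and outside the list, ranged from 2.77 to 3.75 CPM in pot1b Zeocin, 6.35 to 7.92 in pot1b mock, 0.955 to 2.46 in WT Zeocin and 0.752 to 1.37 in WT mock, an interaction of -1.76 (SE 0.37, adjusted p = 0.0265). Its call was lost in 6 of those fits and without both libraries labelled pot1b 3 (adjusted p = 0.0536).

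The list of touch, calcium and lipid-transfer type defence genes had the lowest median of any list, -0.49. Of its 13 tested genes, 3 were called below 0 (0.376% of all genes were) and none above. The calls were EARLI1, AT4G12490 and AZI1, while the 41 tested genes annotated as lipid-transfer type, AZI1 not among them, had a median of -0.09, with 18 above 0 and 23 below. EARLI1 (AT4G12480), a cell-wall protein of systemic immunity, had 86.7, 98.6 and 109 CPM in pot1b Zeocin, 198, 220 and 236 CPM in pot1b mock, 79.3, 71.1 and 82.1 CPM in WT Zeocin and 91.2, 95.9 and 106 CPM in WT mock. The pot1b mock libraries lay above all others, and the WT Zeocin libraries below all others. Its interaction was -0.82 (SE 0.13, adjusted p = 0.00281). Its neighbour AT4G12490, annotated as a lipid-transfer type protein, had 5.74, 6.56 and 6.68 CPM in pot1b Zeocin, 15.9, 16.8 and 18.3 CPM in pot1b mock, 3.08, 2.53 and 3.85 CPM in WT Zeocin and 3.84, 4.21 and 3.70 CPM in WT mock. Both pot1b groups lay above both WT groups, pot1b mock by more, and the interaction was -1.13 (SE 0.21, adjusted p = 0.00756). AZI1 (AT4G12470), which primes salicylate responses, had -0.74 (SE 0.15, adjusted p = 0.0294), and its call held in 4 of the 12 fits without 1 library, with an adjusted p of up to 0.112 in the others, and was just missed without both libraries labelled pot1b 3 (0.0501). These genes lie in a cluster of related sequences, and EARLI1 and AT4G12490 each overlap another annotated gene, so reads may have been shared.

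Heat shock genes, whose proteins help others to fold, were mostly below 0. Zeocin lowered 7 of the 19 tested in pot1b (3.03% of all genes were called lower) and none in WT by edgeR, where 3 had an unadjusted p under 0.05. For the interaction, 2 were called below 0 (0.376% of all genes were) and none above, 14 lay below 0 and the median was -0.19. HSP70 (AT3G12580), a cytosolic chaperone, had 14.1, 14.3 and 13.6 CPM in pot1b Zeocin, 38.1, 38.2 and 36.0 CPM in pot1b mock, 15.6, 12.6 and 10.3 CPM in WT Zeocin and 13.2, 14.9 and 14.0 CPM in WT mock. Untreated pot1b was the high group and the others overlapped, an interaction of -1.29 (SE 0.16, adjusted p = 0.000176). HSP90.1 (AT5G52640), a heat-inducible chaperone, had 12.3, 10.2 and 10.3 CPM in pot1b Zeocin, 25.5, 22.8 and 21.2 CPM in pot1b mock, 17.0, 11.5 and 9.73 CPM in WT Zeocin and 13.0, 14.3 and 11.2 CPM in WT mock. Its interaction was -1.08 (SE 0.23, adjusted p = 0.0458). That call held in 2 of the 12 fits without 1 library, with an adjusted p of 0.00222 without WT Zeocin 1 and of up to 0.150 in the others. Without both libraries labelled pot1b 3 it was 0.166. HSP70B (AT1G16030) and HSP101 (AT1G74310) had -0.89 (SE 0.26) and -0.68 (SE 0.21) and did not pass.

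Genes of reactive oxygen production and response were split. PRX71 (AT5G64120), a class III cell-wall peroxidase, had 295, 292 and 267 CPM in pot1b Zeocin, 520, 496 and 497 CPM in pot1b mock, 379, 311 and 304 CPM in WT Zeocin and 395, 359 and 370 CPM in WT mock. Untreated pot1b was high and Zeocin-treated pot1b low, an interaction of -0.65 (SE 0.12, adjusted p = 0.00964). It was the 1 called gene among 15 of the production list. Without both libraries labelled pot1b 3 its adjusted p was 0.0625. OM66 (AT3G50930, BCS1 in the gene table), a mitochondrial outer membrane ATPase used as a marker of mitochondrial stress, had 11.8, 11.2 and 10.1 CPM in pot1b Zeocin, 8.32, 7.18 and 6.50 CPM in pot1b mock, 11.3, 8.09 and 8.93 CPM in WT Zeocin and 2.89, 2.21 and 2.99 CPM in WT mock. WT mock lay far below the other groups, and the interaction was -1.18 (SE 0.21, adjusted p = 0.00643). Of the 32 responsive genes tested, OM66 was the 1 called below 0 and GSTU4 (AT2G29460), a glutathione transferase, the 1 called above 0, with 0.76 (SE 0.16, adjusted p = 0.0265).

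Scavenging genes held 2 calls among 31 tested, both above 0 (0.366% of all genes were called above 0). GPX2 (AT2G31570), a glutathione peroxidase, had 0.50 (SE 0.12, adjusted p = 0.0469), and DHAR1 (AT1G19570), which recycles ascorbate, 0.48 (SE 0.11, adjusted p = 0.0401). In both, Zeocin lowered the level in WT, by 0.40 for GPX2 and 0.39 for DHAR1 on the log2 scale, against differences of 0.10 and 0.09 in pot1b that did not pass. These calls were weak: GPX2 was lost in all but 2 of the 12 fits without 1 library (adjusted p up to 0.211) and DHAR1 in all but 3 (up to 0.153), and GSTU4 was kept in 5 (up to 0.132). Without both libraries labelled pot1b 3 none of the 3 was called.

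Auxin and cell expansion genes were mostly above 0. Of 26 tested, edgeR called 5 above 0 (0.366% of all genes were) and none below, the most of any list in that direction. Among the 26, 20 lay above 0 and the median was 0.42. Of the same 26, DESeq2 called 3 and limma-voom 5. In the pairwise comparisons Zeocin raised 5 of them in pot1b and lowered none, and in WT it lowered 6 (2.65% of all genes were called lower) and raised none. IAA2 (AT3G23030), an Aux/IAA repressor that auxin itself induces, had 111, 105 and 99.4 CPM in pot1b Zeocin, 106, 91.2 and 94.7 CPM in pot1b mock, 112, 102 and 98.2 CPM in WT Zeocin and 156, 154 and 146 CPM in WT mock. WT mock alone was high, and the other groups overlapped, an interaction of 0.66 (SE 0.11, adjusted p = 0.00457). ATAUX2-11 (AT5G43700), another Aux/IAA gene, named by the size of its contrast, had 27.9, 32.1 and 28.5 CPM in pot1b Zeocin, 24.4, 21.1 and 23.7 CPM in pot1b mock, 23.3, 29.3 and 30.9 CPM in WT Zeocin and 38.7, 37.4 and 36.5 CPM in WT mock. WT mock was again high, with an interaction of 0.78 (SE 0.13, adjusted p = 0.00457).

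A further 3 called auxin genes, IAA5, IAA29 and IAA3, were lowest in untreated pot1b. IAA5 (AT1G15580) had 1.87, 1.66 and 1.80 CPM in pot1b Zeocin, 0.197, 0.234 and 0.361 CPM in pot1b mock, 0.684, 0.730 and 0.588 CPM in WT Zeocin and 0.554, 0.526 and 0.522 CPM in WT mock. The pot1b mock level lay near the limit of detection, with 12 reads summed over the 3 libraries, and the interaction was 2.46 (SE 0.49, adjusted p = 0.0151). Its call was lost without the library labelled pot1b Zeocin 1, pot1b mock 1 or pot1b mock 2, or without WT mock 1, where the adjusted p reached 0.0734. IAA29 (AT4G32280) had 5.26, 6.47 and 5.70 CPM in pot1b Zeocin, 1.62, 1.4 and 1.59 CPM in pot1b mock, 6.84, 4.04 and 3.53 CPM in WT Zeocin and 3.21, 3.05 and 3.23 CPM in WT mock. WT Zeocin 1 was the highest library, and the interaction of 1.32 (SE 0.30, adjusted p = 0.0395) was called in 1 of the 12 fits without 1 library, the one without WT Zeocin 1 (adjusted p = 0.000148), against up to 0.139 in the others. IAA3 (AT1G04240) had an interaction of 0.72 (SE 0.16, adjusted p = 0.0349). GH3.3 (AT2G23170), which conjugates auxin to amino acids, had 32.6, 35.9 and 33.2 CPM in pot1b Zeocin, 30.9, 37.0 and 32.5 CPM in pot1b mock, 34.5, 38.8 and 37.6 CPM in WT Zeocin and 53.0, 55.4 and 52.6 CPM in WT mock. Like IAA2 it was high in WT mock, with the other groups overlapping, an interaction of 0.56 (SE 0.11, adjusted p = 0.0183). IAA3 held in 3 and GH3.3 in 7 of the fits without 1 library. IAA29, IAA3 and GH3.3 were not called without both libraries labelled pot1b 3 (adjusted p = 0.162, 0.135 and 0.128).

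**Figure D4:**
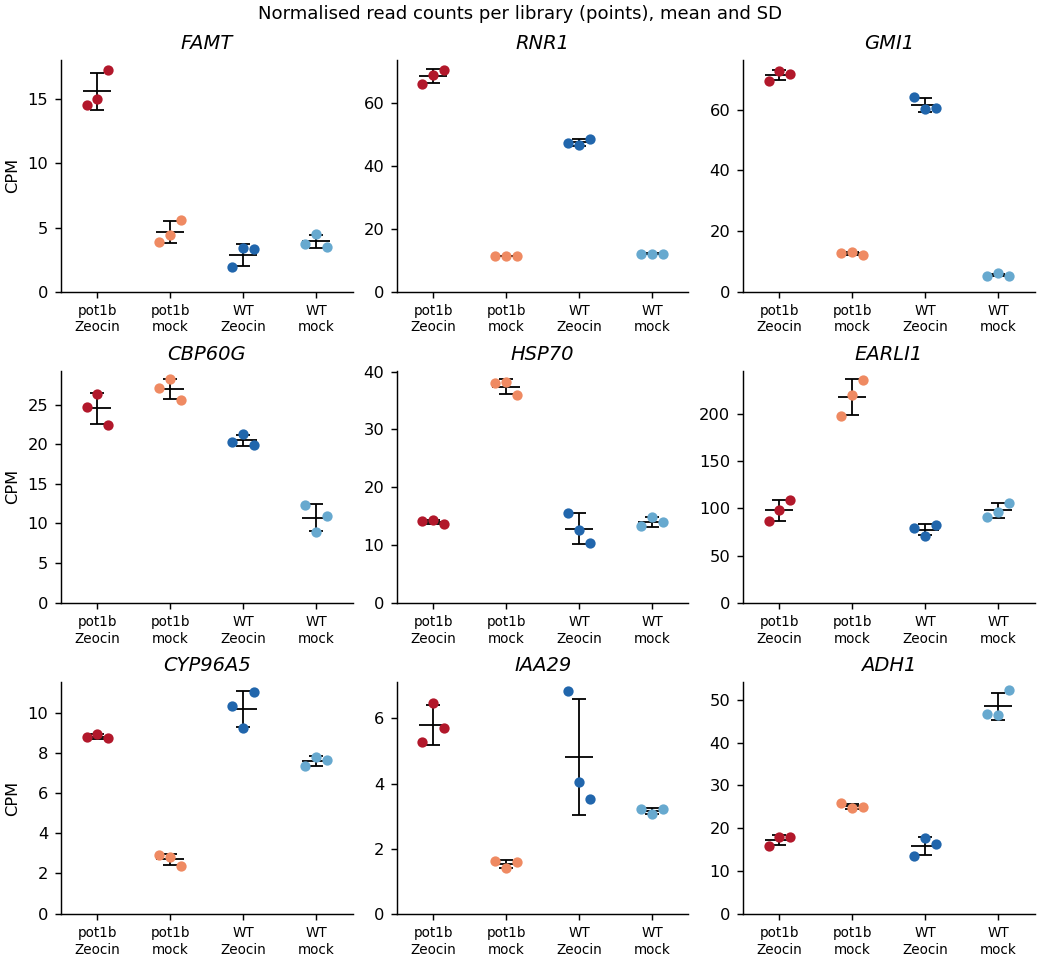
CPM of 9 called genes in each library (points), with group mean and SD (bars, n = 3), pot1b Zeocin and pot1b mock to the left of WT Zeocin and WT mock. HSP70 and EARLI1 were high in pot1b mock, FAMT in pot1b Zeocin and ADH1 in WT mock, and IAA29 in WT Zeocin 1 stood at 6.84 CPM against 4.04 and 3.53 in its replicates.

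The jasmonate list held the called contrast that was largest above 0 among genes of at least 2 CPM, that of FAMT. This gene was placed in the list, although its annotated product names farnesoic acid and not jasmonate. FAMT (AT3G44860), a farnesoic acid carboxyl methyltransferase, had 14.6, 15.0 and 17.3 CPM in pot1b Zeocin, 3.89, 4.45 and 5.56 CPM in pot1b mock, 1.91, 3.43 and 3.31 CPM in WT Zeocin and 3.72, 4.52 and 3.51 CPM in WT mock. Zeocin-treated pot1b alone was high. The Zeocin effect was 1.77 in pot1b and -0.39 in WT, an interaction of 2.16 (SE 0.25, adjusted p = 0.000122). JAZ9 (AT1G70700), a repressor of jasmonate signalling, was the other call among the 28 tested, with 0.46 (SE 0.10, adjusted p = 0.0307), lost in all but 2 fits without 1 library (up to 0.140) and without both libraries labelled pot1b 3 (0.162). The median of the list was 0.11. JAZ8 (AT1G30135), another repressor, had 2.49 with an SE of 0.63 at under 1 CPM in each group and did not pass (adjusted p = 0.0712).

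Among genes of hypoxia and fermentation, 12 were tested and 1 was called. ADH1 (AT1G77120), the alcohol dehydrogenase of fermentation, averaged 17.2 ± 1.26 CPM in pot1b Zeocin, 25.2 ± 0.579 in pot1b mock, 15.8 ± 2.05 in WT Zeocin and 48.5 ± 3.22 in WT mock (SD, n = 3 each). The Zeocin libraries of both genotypes overlapped and the mock libraries did not. Zeocin lowered it by 0.55 in pot1b, against 1.62 in WT, an interaction of 1.07 (SE 0.13, adjusted p = 0.000181). The median of the list was 0.30, with 10 of 12 above 0.

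Single calls came from 3 further lists. OPT3 (AT4G16370), an iron and copper transporter of the phloem, was the 1 call among 15 iron genes, with -0.63 (SE 0.15, adjusted p = 0.0445), and held in 1 of the 12 fits without 1 library, that without WT Zeocin 1 (0.00423). CYP79B2 (AT4G39950), which turns tryptophan into the precursor of indole glucosinolates, was the 1 of 18 glucosinolate genes, with -0.61 (SE 0.13, adjusted p = 0.0237). It was raised by Zeocin in WT by 0.52, against -0.09 in pot1b, and held in 3 of those fits. CER3 (AT5G57800), a subunit for wax alkane synthesis, was the 1 of 13 wax and suberin genes, with -0.55 (SE 0.11, adjusted p = 0.0122). Its call was lost without the library labelled pot1b Zeocin 1 or without WT mock 1, with an adjusted p of up to 0.0582. Without both libraries labelled pot1b 3, CER3 was called (0.0463), and OPT3 (0.110) and CYP79B2 (0.0571) were not.

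Over all lists, 468 of 543 members were tested, 12 were called above 0 and 14 below (0.366% and 0.376% of all genes were). Without 1 library the calls above 0 numbered 4 (WT mock 1) to 27 (WT Zeocin 1) and those below 0 were as few as 8 (the library labelled pot1b Zeocin 1, or WT mock 1). The lists for abscisic acid and cold (22 tested), dark and sugar starvation (16), flavonoids (9), photosynthesis (27), the clock (21), senescence (10), root (13) and shoot meristem (2) held no call by edgeR, with 6, 4, 1, 5, 4, 1, 4 and 0 unadjusted p-values under 0.05 in that order. DESeq2 called 2 abscisic acid and cold genes, KIN1 and LTI78, the starvation gene TPS10 and the photosynthesis gene RBCS1A, and limma-voom called RBCS1A. The edgeR fit with the replicate number as a block called these and also LTI30 (cold), MGL (starvation) and BGLU21 (root). KIN1 (AT5G15960), a cold-induced gene, and RBCS1A (AT1G67090), a Rubisco small subunit, came closest, with 0.89 (SE 0.21) and -0.54 (SE 0.13), both at an adjusted p of 0.0501. The lowest p of the other lists belonged to TPS10 (AT1G60140) for starvation with 0.36 (adjusted p = 0.116), F3H (AT3G51240) for flavonoids with -1.34 (0.197), BOA (AT5G59570) for the clock with 0.39 (0.167), PAO (AT3G44880) for senescence with -0.28 (0.373), BGLU21 (AT1G66270) for root with 0.41 (0.116) and STM (AT1G62360) for the meristem with -0.44 (0.832).

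**Figure D5:**
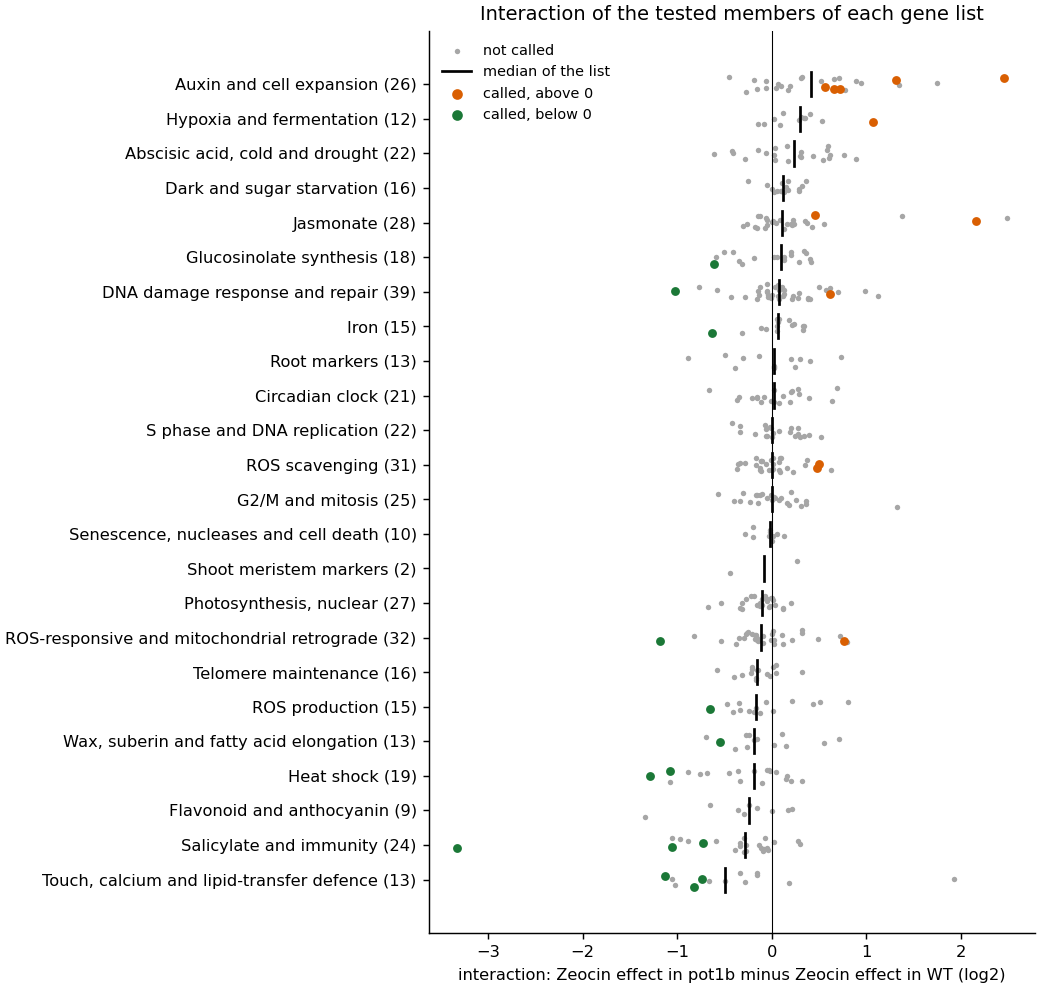
Interaction (log2) of each tested member of 24 gene lists, 1 point per gene, ordered by the list median (black bar), with called genes orange above 0 and green below 0. The auxin list has the highest median, 0.42, and the touch, calcium and lipid-transfer list the lowest, -0.49.

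In whole seedlings, fewer cells of a type and less RNA per cell cannot be told apart. The summed level of 16 root markers was 1065 to 1183 CPM in pot1b Zeocin, 1057 to 1125 in pot1b mock, 674 to 741 in WT Zeocin and 722 to 762 in WT mock, and no marker was at 0 in all libraries. This sum was higher in pot1b under both treatments, but the markers did not all move together. Of the 13 tested, 6 were called higher in pot1b and 1 lower under Zeocin, and 5 higher and 1 lower under mock. Over all 19394 nuclear genes tested, 2160 were called between the genotypes under Zeocin and 2540 under mock, both directions together. The median log2 difference between pot1b and WT of the 13 was 0.28 under Zeocin and 0.29 under mock. Over all genes it was 0.01 and 0.00. The median interaction of the 13 tested root markers was 0.03. The summed level of 29 nuclear photosynthesis genes was 20648 to 21754 CPM in pot1b Zeocin, 22661 to 24190 in pot1b mock, 17155 to 20316 in WT Zeocin and 18916 to 19940 in WT mock, with 21 of 27 contrasts below 0 and a median of -0.10. The 6 shoot meristem markers summed to 2.18 to 4.55 CPM and the 7 seed storage markers, of which none was tested, to 0.316 to 1.59 CPM over the 12 libraries. The part of organ makeup in the called genes was not tested.

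The rest of the named genes were the called ones with the largest contrasts of at least 2 CPM in each pattern. Highest in pot1b Zeocin with FAMT was AT5G23910, annotated as a microtubule motor protein, which had 37.0, 34.3 and 35.7 CPM in pot1b Zeocin, 1.67, 1.79 and 1.73 CPM in pot1b mock, 26.5, 23.9 and 23.8 CPM in WT Zeocin and 2.30, 2.42 and 2.61 CPM in WT mock. It was strongly raised by Zeocin in both genotypes, and more so in pot1b, with an interaction of 1.03 (SE 0.17, adjusted p = 0.00435). It overlaps AT5G23908 in the annotation. AT1G14120, annotated as an oxygenase that uses 2-oxoglutarate and iron, had 8.51, 7.26 and 7.28 CPM in pot1b Zeocin, 4.23, 3.82 and 3.10 CPM in pot1b mock, 4.45, 4.77 and 3.90 CPM in WT Zeocin and 6.25, 6.42 and 5.32 CPM in WT mock. Its order of groups was crossed, pot1b being above WT under Zeocin and below it under mock, an interaction of 1.48 (SE 0.21, adjusted p = 0.000849). AT5G35940, a mannose-binding lectin type protein, had 0.94 (SE 0.20, adjusted p = 0.0261) and held in 5 fits without 1 library.

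Among genes lowest in pot1b Zeocin, PGAZAT (AT2G41850), a polygalacturonase that loosens pectin, had 13.4, 13.6 and 12 CPM in pot1b Zeocin, 21.0, 20.0 and 19.3 CPM in pot1b mock, 28.4, 21.8 and 23.1 CPM in WT Zeocin and 21.6, 21.2 and 20.5 CPM in WT mock. Its interaction was -0.84 (SE 0.14, adjusted p = 0.00435), and Zeocin-treated pot1b lay below all other libraries. AT4G16980, an arabinogalactan protein gene, had -0.90 (SE 0.17, adjusted p = 0.0122), and AT4G16983, which overlaps it, had counts equal to it in all 12 libraries within 5% or 2 counts, so that they are 1 signal. ATSPS4F (AT4G10120), a sucrose-phosphate synthase, had -0.79 (SE 0.18, adjusted p = 0.0395). The call held in 8 of the 12 fits without 1 library for AT4G16980 and in 4 for ATSPS4F.

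Among genes highest in untreated pot1b, AIG1 is described above, and the best supported was AT5G25260, annotated as a membrane-associated protein with a Band 7 domain. It had 10, 9.79 and 9.23 CPM in pot1b Zeocin, 21.2, 22.3 and 21.5 CPM in pot1b mock, 9.64, 10.4 and 8.71 CPM in WT Zeocin and 8.59, 8.31 and 8.12 CPM in WT mock. The pot1b mock libraries lay far above the rest. Its adjusted p was the lowest of all nuclear genes, 6.25e-05, with an interaction of -1.36 (SE 0.14), and it overlaps AT5G25265. AT2G44290, a lipid-transfer type protein, and AT3G47480, a calcium-binding EF-hand protein, had -1.58 (SE 0.34, adjusted p = 0.0294) and -1.49 (SE 0.33, adjusted p = 0.0311). Each held in 4 fits without 1 library, and neither was called without both libraries labelled pot1b 3 (0.135 and 0.120).

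Among genes sorted as lowest in untreated pot1b, the largest contrast after IAA29 was that of CYP96A5 (AT2G21910), a cytochrome P450. It had 8.79, 8.92 and 8.71 CPM in pot1b Zeocin, 2.90, 2.81 and 2.38 CPM in pot1b mock, 10.3, 9.21 and 11.0 CPM in WT Zeocin and 7.32, 7.78 and 7.64 CPM in WT mock. Untreated pot1b lay far below the other groups. Zeocin raised it by 1.70 in pot1b, against 0.43 in WT, an interaction of 1.27 (SE 0.18, adjusted p = 0.000697). DIN11 (AT3G49620), a dark-inducible gene, had 211, 193 and 197 CPM in pot1b Zeocin, 119, 106 and 120 CPM in pot1b mock, 207, 163 and 152 CPM in WT Zeocin and 197, 191 and 192 CPM in WT mock. Untreated pot1b was the low group, and WT Zeocin 1 was the high library of its group, an interaction of 0.95 (SE 0.13, adjusted p = 0.000573). AT2G43150, an extensin-like gene, had 0.76 (SE 0.16, adjusted p = 0.0268), held in 4 fits without 1 library and not without both libraries labelled pot1b 3 (0.141).

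In the WT groups, GRP9 (AT2G05440), a glycine-rich protein gene, was lowest in WT Zeocin. It had 11.9, 15.8 and 12.4 CPM in pot1b Zeocin, 11.4, 8.81 and 12.9 CPM in pot1b mock, 8, 10.2 and 7.27 CPM in WT Zeocin and 15.6, 17.1 and 17.5 CPM in WT mock. WT mock was high, and WT Zeocin overlapped pot1b mock but not pot1b Zeocin. The interaction was 1.24 (SE 0.20, adjusted p = 0.00435). AT2G05510, of the same family, had 1.3 (SE 0.29, adjusted p = 0.0445) and was not called without WT Zeocin 1 (0.0574). LBD25 (AT3G27650), a transcription factor of the LOB domain family, had 1.25 (SE 0.29, adjusted p = 0.0437) and AT1G62975, a bHLH type factor, 0.98 (SE 0.21, adjusted p = 0.0261). The call held in 3, 2 and 5 fits without 1 library for AT2G05510, LBD25 and AT1G62975. LBD25 (0.181) and AT1G62975 (0.0533) were not called without both libraries labelled pot1b 3.

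Genes lowest in WT mock included ACS7 (AT4G26200), which makes the precursor of ethylene. It had 7.06, 7.70 and 6.38 CPM in pot1b Zeocin, 9.05, 9.83 and 10.5 CPM in pot1b mock, 8.75, 7.58 and 7.38 CPM in WT Zeocin and 5.30, 3.47 and 5.17 CPM in WT mock. WT mock was low and pot1b mock high. Zeocin lowered it by 0.48 in pot1b and raised it by 0.71 in WT, an interaction of -1.19 (SE 0.20, adjusted p = 0.00457). AT3G60415, a gene of the phosphoglycerate mutase family, had 5.40, 4.81 and 5.63 CPM in pot1b Zeocin, 3.05, 4.68 and 3.68 CPM in pot1b mock, 5.61, 4.38 and 4.33 CPM in WT Zeocin and 1.35, 0.947 and 0.949 CPM in WT mock. WT mock lay below all others, and the interaction was -1.58 (SE 0.28, adjusted p = 0.00546). PPa2 (AT2G18230), a pyrophosphatase, and CYP706A2 (AT4G22710), a cytochrome P450, had -1.42 (SE 0.31, adjusted p = 0.0294) and -1.20 (SE 0.24, adjusted p = 0.0183), held in 5 and 8 fits without 1 library and in neither case without both libraries labelled pot1b 3 (0.0715 and 0.103). Among genes sorted as highest in WT mock, ADH1 and ATAUX2-11 are described above. AT5G19890, a peroxidase, had 0.89 (SE 0.18, adjusted p = 0.0183, 5 fits). AT5G23350, a GRAM domain gene, had 0.73 (SE 0.17, adjusted p = 0.0408, 3 fits), and was not called without both libraries labelled pot1b 3 (0.0825).

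The 4 genes sorted as highest in WT Zeocin had contrasts of -0.69 to -0.51. XTR6 (AT4G25810), a wall-modifying xyloglucan enzyme, had -0.51 (SE 0.10, adjusted p = 0.0122), AT4G17250 -0.58 (SE 0.12, adjusted p = 0.0208) and AT1G09520 -0.69 (SE 0.16, adjusted p = 0.0490), beside CYP79B2 above. The call held in 8, 7 and 2 fits without 1 library for XTR6, AT4G17250 and AT1G09520, and none of the 4 was called without both libraries labelled pot1b 3.

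Of the 54 called genes picked by size of contrast or list membership, 22 were called in every fit without 1 library. Of these, 21 were also called without both libraries labelled pot1b 3, with adjusted p-values of 0.00158 to 0.0464, and PRX71 was not. Among all 144 called genes, 37 (25.7%) overlap another annotated gene, against 35.9% of the genes tested, and 3 of 4 pairs of called genes that overlap each other had equal counts, so the number of separate signals is lower than 144.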

How the data were processed

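Total RNA of whole seedlings was made into stranded libraries after ribosomal RNA depletion, per the labels' protocols. The authors deposited raw counts per gene for each library, and the submitters' processing notes list Trim Galore, HISAT2, featureCounts, limma and the build TAIR10. Versions, the strand setting of the counting and the treatment of reads in overlapping genes are not given in the sources used here. Counts from overlapping or near-identical genes can therefore be mixed.

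From the deposited counts, features were kept by edgeR's filterByExpr with a minimum count of 10 (19596 kept, 14666 removed), scaled by TMM over all features and fitted with edgeR 4.0.16 in R 4.3.3 (quasi-likelihood, robust prior) as 4 group means over 12 libraries, with 8 residual degrees of freedom and a common biological coefficient of variation of 11%. P-values were adjusted by Benjamini-Hochberg over all 19596 features, and calls were made below an adjusted p of 0.05. The SE is the size of the log2 contrast divided by the square root of its F. Genes with similar ratios of contrast to SE can differ in p, as BRCA1 and XRI1 did, so the SE alone does not give the uncertainty. In R, DESeq2 1.42.0 and limma-voom 3.58.1 were alternatives, as were DESeq2 size factors, no filter, nuclear genes only, no robust prior, a replicate block, and fits without single libraries or without both libraries labelled pot1b 3. The code was tested on simulated data. Gene names and overlaps came from RefSeq's table of the same species, with no coordinates used. The named genes were, among called genes of at least 2 CPM on average, the 4 with the largest contrast in each pattern, every called list member, POT1B, and the member with the lowest p of each list with no call. Uncalled members of lists that held calls, genes with opposite Zeocin calls and members of the families were named in addition, after their values were seen. The gene lists, members and tests were chosen with earlier results of these data known. No duplicated library was found. Promoter and protein sequences were not used here.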

Additional observations from a re-analysis of the deposited data

Results flagged for a closer look

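Each gene below passed the test of the difference between the genotypes' Zeocin effects (edgeR, adjusted p under 0.05), which is why it is listed, and the value is the interaction on the log2 scale, pot1b minus WT. Genes are sorted by the group that stood farthest apart, and the 4 largest contrasts of at least 2 CPM come first in each pattern. The further list members at the end belong to these patterns too. No explanation was weighed.

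Genes highest in pot1b Zeocin were FAMT with 2.16, AT1G14120 with 1.48, AT5G23910 with 1.03 and AT5G35940 with 0.94. To these the lists added RNR1 with 0.62 and IAA5 with 2.46. Genes lowest there were AT4G16980 and AT4G16983 with -0.90 each, PGAZAT with -0.84 and ATSPS4F with -0.79.

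Of genes sorted as highest in pot1b mock, the largest were AIG1 with -1.76, AT2G44290 with -1.58, AT3G47480 with -1.49 and AT5G25260 with -1.36. PBS3, FRK1, HSP70, HSP90.1, OPT3, PRX71, CER3, AZI1, EARLI1 and AT4G12490, listed further below, were sorted here too. Of those sorted as lowest in pot1b mock, the largest were IAA29 with 1.32, CYP96A5 with 1.27, DIN11 with 0.95 and AT2G43150 with 0.76.

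Genes highest in WT Zeocin were AT1G09520 with -0.69, CYP79B2 with -0.61, AT4G17250 with -0.58 and XTR6 with -0.51. Those lowest there were AT2G05510 with 1.3, LBD25 with 1.25, GRP9 with 1.24 and AT1G62975 with 0.98.

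Genes highest in WT mock were ADH1 with 1.07, AT5G19890 with 0.89, ATAUX2-11 with 0.78 and AT5G23350 with 0.73. Those lowest there were AT3G60415 with -1.58, PPa2 with -1.42, CYP706A2 with -1.20 and ACS7 with -1.19.

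Further list members with values below 0 were GMI1 with -1.02, PBS3 with -3.33, CBP60G with -1.05, FRK1 with -0.73, HSP70 with -1.29, HSP90.1 with -1.08, OPT3 with -0.63, PRX71 with -0.65, OM66 with -1.18, CER3 with -0.55, AZI1 with -0.74, EARLI1 with -0.82 and AT4G12490 with -1.13. Those above 0 were JAZ9 with 0.46, GPX2 with 0.50, DHAR1 with 0.48, GSTU4 with 0.76, IAA2 with 0.66, IAA3 with 0.72 and GH3.3 with 0.56.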

How the results depend on the processing

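The 144 calls became 146 with DESeq2 size factors, 154 with nuclear genes only, 142 with limma-voom, 167 with DESeq2 and 181 with no filter. They fell to 74 (31 above 0, 43 below) with no robust prior and to 64 (34 above, 30 below) without both libraries labelled pot1b 3. Without 1 library they ranged from 55 to 416, those above 0 from 21 to 233 and those below 0 from 32 to 183. The 12 list members called above 0 became 6 with no robust prior, 5 without both libraries labelled pot1b 3 and 4 to 27 without 1 library, and the 14 below 0 became 8 to 20 without 1 library. With no robust prior, 22 of the genes named by rule lost their call, at adjusted p-values of up to 0.0895: AIG1, AT1G09520, AT1G62975, AT2G05510, AT2G43150, AT2G44290, AT3G47480, AT5G19890, AT5G23350, AT5G35940, ATSPS4F, AZI1, DHAR1, GPX2, GSTU4, HSP90.1, IAA29, IAA3, JAZ9, LBD25, OPT3 and PPa2. The cause of these changes was not tested. All 144 contrasts kept their sign in every alternative, which their choice from the same data made likely. Of the 144, 125 were called by DESeq2 and 135 by limma-voom. POT1B, which was not called, had contrasts of -0.88 to 0.43 in the fits without 1 library, above 0 in 5 of them.

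With the replicate number as a block, 367 genes were called (208 above 0, 159 below), among them all 144, and 24 list members above 0. It added calls for 17 list members, 8 of them in lists that held none (CYCB2;2, KIN1, LTI78, LTI30, TPS10, MGL, RBCS1A and BGLU21), and for XRI1, ICS1 and JAZ8 among the others. Same-numbered libraries of different groups deviated together in 16 of 18 pairs (correlation over 0.1, lowest -0.045, median 0.338). Of 36 pairs with different numbers, 6 did (highest 0.49, median -0.149). Deviations from a group mean sum to 0 within the group, so the values for same and different numbers are not independent. In 10 of 12 libraries the best correlation was with one of their own number. The library names are numbered in sets that share a replicate number, but the labels do not say that a number marks a shared batch, so the pairing is a hint and not part of the design. The deviations come from 3 libraries per group, and depth limited the test for genes under 2 CPM, of which 0.0988% were called.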

Other observations

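Some gene families lay wholly or mostly outside the lists. Of their tested members, 3 of 14 HSP70, 6 of 42 SAUR, 6 of 28 Aux/IAA, 7 of 47 peroxidase and 3 of 41 lipid-transfer type genes are also list members. The families were picked after their members were seen among the called genes, so their counts are a description with no test. Over all nuclear genes tested, 0.366% were called above 0 and 0.376% below. All 14 tested members annotated as HSP70 proteins had interactions below 0, with a median of -0.39, and 4 were called. Besides HSP70 these were Hsp70-2 (AT5G02490), with 9.53 to 11.1 CPM in pot1b Zeocin, 20.4 to 23.9 in pot1b mock, 7.54 to 8.62 in WT Zeocin and 6.53 to 8.59 in WT mock and an interaction of -1.29 (SE 0.17), AT3G09440 with -0.94 (SE 0.13), and BIP2 (AT5G42020), the chaperone of the endoplasmic reticulum, with -0.65 (SE 0.12). HSP70 genes are close copies of each other, so reads may be shared among them. Of 20 tested genes annotated as BIP, calnexin, calreticulin, SHEPHERD or disulfide isomerase, BIP2 included, 3 were called below 0 and 14 lay below 0. CNX1 (AT5G61790), calnexin, had -0.61 (SE 0.13) and PDIL1-2 (AT1G77510), a disulfide isomerase, -0.63 (SE 0.15). The call held in 3 of the 12 fits without 1 library for CNX1 and in 2 for PDIL1-2. Hsp70-2 and AT3G09440 were called without both libraries labelled pot1b 3 (adjusted p = 0.00858 each, edgeR), and BIP2 (0.0892), CNX1 (0.109) and PDIL1-2 (0.172) were not.

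Of 24 tested cysteine-rich receptor-like kinases, 3 were called, all below 0, and 17 lay below 0. CRK13 (AT4G23210) had 39.8 to 41.9 CPM in pot1b Zeocin, 49.8 to 52.6 in pot1b mock, 21.1 to 26.3 in WT Zeocin and 16.3 to 19.1 in WT mock, an interaction of -0.76 (SE 0.12), and CRK21 (AT4G23290) and CRK22 (AT4G23300) had -0.72 (SE 0.15) and -0.77 (SE 0.17). The calls of CRK21 and CRK22 held in 4 of the 12 fits each and not without both libraries labelled pot1b 3 (0.0942 and 0.103), where that of CRK13 did (0.024). Of 5 tested legume lectin genes, 2 were called above 0, AT3G15356 with 0.56 (SE 0.11) and AT3G16530 with 0.48 (SE 0.10), both lowest in pot1b mock and AT3G16530 overlapping AT3G16525, which was also called. Their calls held in 9 fits for AT3G15356 and 1 for AT3G16530, and in neither case without both libraries labelled pot1b 3 (0.101 and 0.172). Among 42 tested genes of the SAUR family, of early auxin response, edgeR called none, and neither did DESeq2 or limma-voom. Of these, 30 lay above 0, with a median of 0.43, and 10 had an unadjusted p under 0.05. The other families were nearer 0 or split. Of 28 tested Aux/IAA genes, 5 were called above 0, 19 lay above 0 and the median was 0.17. Of 47 class III peroxidases, 1 was called above 0 and 2 below, with 22 above 0, 25 below and a median of -0.03. Of 41 lipid-transfer type genes, 3 were called below 0, with a median of -0.09, and of 71 immune receptors of the TIR type 1 was called below 0, with 44 below 0 and a median of -0.07.

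Of 202 tested features outside the nuclear genes, 3 were called, the mitochondrial genes ATMG00640 with 0.43 (SE 0.10) and ATMG01390 with 1.4 (SE 0.21), and the chloroplast gene ATCG00170 with 0.56 (SE 0.13).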
